A study of Homo sapiens with 15 samples.

Results

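The LINC genes are long intergenic non-coding RNA genes that the human gene nomenclature names by the letters LINC and a number. A gene was taken as an expressed LINC gene where its symbol was LINC followed only by digits and its mean over all 15 libraries was at least 0 log2 RPM, where RPM is reads scaled to a common library total. Of the 35805 genes listed, 909 carried such a name, and 77 of these passed the level. They bear 76 symbols, since LINC00869 stood on 2 lines. The remaining 832 were below the level, and 445 of them had no read in any library. The choice used the measured level, so the levels below are a description and were not tested.

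The libraries were strand-specific polyA+ RNA-seq of HEK-293T, a line grown from human embryonic kidney and carrying adenoviral DNA and SV40 large T antigen. All 15 came from 1 reporter background, a single-cell clone with a green fluorescent protein gene knocked in under the PSMB5 promoter and with PSMB5 supplied exogenously to keep cells alive. The 5 groups had 3 libraries each: untransduced cells, labelled Wild-type, cells given Cas9 with 1 of 2 control guides (sg1-Control and sg2-Control), and cells given Cas9 with 1 of 2 guides against the transcription factor THAP1 (sg1-THAP1 and sg2-THAP1). The THAP1-guide cells were sorted as populations of dim reporter fluorescence, not cloned. The 6 control-guide libraries are called sgControl and the 6 THAP1-guide libraries sgTHAP1. The study gives the RNA-seq as biological triplicates, without saying more of how the replicates were grown.

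Long non-coding RNAs are transcribed, capped, spliced and often polyadenylated like messenger RNAs, but carry no long reading frame. Some act in the nucleus on chromatin or on neighbouring genes, others bind proteins or microRNAs in the cytoplasm, and some symbols of this kind were later withdrawn because the RNA was found to encode a small protein. Many start close to the start of a protein-coding gene and run away from it, as divergent transcripts.

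Libraries held 30400149 to 56638461 reads, and each of the 77 genes had between 14 and 16846 reads in a library. THAP1 RNA lay between 3.25 and 3.57 log2 RPM in the 9 libraries without a THAP1 guide and between 5.48 and 6.18 in the 6 sgTHAP1 libraries; an RNA level says nothing of the protein. PSMB5 RNA was 0.49 lower on the log2 scale in sgTHAP1 than in sgControl. All 6 markers of HEK-293T cells were detected, and their summed level was 1673 to 1703 RPM in untransduced libraries, 1407 to 1550 RPM with control guides and 1349 to 1549 RPM with THAP1 guides. The 6 markers of blood, lung and liver cells together reached 0.295 to 0.465 RPM without transduction, 0.540 to 1.08 RPM with control guides and 0.454 to 0.942 RPM with THAP1 guides, and of them CD3E, PTPRC and LYZ were at 0 in the untransduced libraries. Reads within listed genes made up 90.8 to 91.0% of the untransduced, 92.7 to 93.2% of the sgControl and 93.3 to 94.5% of the sgTHAP1 libraries.

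The promoters of 4 genes are shown as examples. LINC00638 was the 1 gene called in the THAP1-guide comparison, and LINC00641 the 1 gene called higher in the control-guide comparison. LINC00665 rose with both THAP1 guides, and LINC01021, also named PURPL, is known as an RNA induced by p53. Each window covers 250 bases before to 50 bases after the RefSeq start, 5′ to 3′ on the strand of the gene, in GRCh38.p14. Each of these starts is the start in the deposited positions. Capitals mark every match to TNNNGGCA, the core letters of the THAP1 motif, on either strand.

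LINC00638 (chr14:104820951-104821250, plus strand): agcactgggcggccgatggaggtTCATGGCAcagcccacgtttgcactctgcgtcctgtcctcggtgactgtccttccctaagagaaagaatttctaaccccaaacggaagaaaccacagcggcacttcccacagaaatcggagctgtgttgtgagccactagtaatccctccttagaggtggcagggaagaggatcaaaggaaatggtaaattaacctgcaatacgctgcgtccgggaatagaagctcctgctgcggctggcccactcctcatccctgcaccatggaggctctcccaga

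LINC00665 (chr19:36331669-36331968, minus strand): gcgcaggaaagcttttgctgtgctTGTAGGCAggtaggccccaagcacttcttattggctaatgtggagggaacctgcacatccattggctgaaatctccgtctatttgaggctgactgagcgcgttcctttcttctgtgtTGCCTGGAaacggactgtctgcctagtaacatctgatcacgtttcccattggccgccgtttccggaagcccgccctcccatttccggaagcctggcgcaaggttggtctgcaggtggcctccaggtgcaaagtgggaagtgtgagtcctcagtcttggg

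LINC01021 (chr5:27472042-27472341, plus strand): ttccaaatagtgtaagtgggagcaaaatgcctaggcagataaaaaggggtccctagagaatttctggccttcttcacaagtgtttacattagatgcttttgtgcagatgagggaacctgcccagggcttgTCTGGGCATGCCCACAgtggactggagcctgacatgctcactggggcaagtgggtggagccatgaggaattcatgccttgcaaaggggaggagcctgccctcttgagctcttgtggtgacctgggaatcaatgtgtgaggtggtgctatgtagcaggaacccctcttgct

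LINC00641 (chr14:21206851-21207150, minus strand): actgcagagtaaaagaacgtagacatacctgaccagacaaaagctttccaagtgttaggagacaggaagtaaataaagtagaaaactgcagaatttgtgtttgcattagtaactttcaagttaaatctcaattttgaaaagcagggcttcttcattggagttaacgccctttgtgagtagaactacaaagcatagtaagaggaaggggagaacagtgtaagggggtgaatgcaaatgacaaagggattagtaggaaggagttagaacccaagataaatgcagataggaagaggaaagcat

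The letters TNNNGGCA occur once in the window of LINC00638, at -227 from the start, and in both LINC00665, at -226 and -109, and LINC01021, at -120 and -112, where the matches of the last gene adjoin each other. LINC00641 had none. The motif is short and common: it was found in 41.7% of all 35116 RefSeq promoters of this length and in 27 of the 60 LINC genes that had one. GCCATNTT, the core of the YY1 motif, was found in 6.58% of all promoters and in 3 of those 60, and in none of the 4 windows shown. Of the 35 windows whose start lay within 200 bases of the deposited start, TNNNGGCA was present in 2 of 10 genes that were lower in sgTHAP1, 5 of 12 that were higher and 8 of 13 that were neither. A match is a run of letters and not a bound site.

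The level of LINC RNAs was dominated by a few genes. LINC00657, known as NORAD, an abundant cytoplasmic RNA that binds PUMILIO proteins, had a mean of 8.09 log2 RPM and held 25.2 to 37.8% of all RPM of the 77 genes in a library. The 10 highest genes together held 51.5 to 68.9%. After LINC00657 came LINC00998 (SMIM30) at 5.82, LINC00641 at 4.95, LINC00094 (BRD3OS) at 4.94, LINC00674 at 4.88, LINC00493 (SMIM26) at 4.74, LINC01420 (NBDY) at 4.69, LINC00963 at 4.63, LINC01128 at 4.18 and LINC00969 at 3.73 log2 RPM. These RPM values take no account of length.

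Exon lengths were taken from the transcript tagged as Ensembl canonical, in the 71 genes matched to GENCODE release 44. Per kilobase of these exons, LINC00998 at 5.80 and LINC00493 at 5.77 log2 RPM per kb stood above LINC00657 at 5.65. The canonical exons of LINC00657 cover 5401 bases and those of LINC00493 only 490. LINC00963 followed at 4.30 and LINC00641 at 4.14. The lowest were LINC01551 at -2.25 and LINC00632, the host of the circular RNA CDR1-AS, at -2.39, whose canonical exons cover 21234 bases. Exon length of the canonical transcript ranged from 356 to 21234 bases with a median of 2059.

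Of the 71 matched genes, 61 are annotated as lncRNA in that release and 10 as protein-coding, and 24 were found only through an older symbol. The 10 that are now protein-coding include LINC00998, whose product SMIM30 is a small membrane protein, LINC00493, whose product SMIM26 is a mitochondrial microprotein, LINC01420, whose product NBDY is found in P-bodies, and LINC00116, whose product MTLN lies in the inner mitochondrial membrane. LINC00086 and LINC00087, now SMIM10L2A and SMIM10L2B, are near-identical copies on chromosome X, and the 2 lines of LINC00869 may share reads likewise, so how reads were split within these pairs is uncertain.

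At the cut, LINC00461 at 0.11, LINC01006 at 0.13 and LINC00858 at 0.13 log2 RPM were just inside. LINC01126 at -0.03, LINC01534 at -0.08 and LINC01134 at -0.10 were just outside. LINC01134 is outside through its low libraries: it lay between -2.56 and -0.33 in the 9 libraries without a THAP1 guide and between 0.76 and 1.99 in the 6 sgTHAP1 libraries. Of the 77 genes, 65 had a mean of at least 0 in each of the 5 groups, 2 reached it in the untransduced group only. For 5 genes, LINC00910 (-0.38), LINC00982 (-0.11), LINC00858 (-0.18), LINC01006 (-0.03) and LINC00461 (-0.22), the mean over the 12 transduced libraries was below 0. These passed the level only through their higher untransduced libraries, so their inclusion required a lower mean in transduced than in untransduced cells.

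Cells given a control guide had lower levels of most LINC RNAs than untransduced cells. This comparison asks what transduction with Cas9 and a guide that does not target THAP1 changed, and it cannot be told apart from any difference in selection, passage or handling between transduced and untransduced cells. In limma's moderated test, with Benjamini-Hochberg adjustment over all 16787 genes tested and a threshold of 0.05, 56 of the 77 were lower in sgControl and 3 were higher. Over all genes tested, 40.5% were lower and 28.1% higher. The median log2 change was -0.86 over the 77 genes and -0.12 over all genes tested. The 77 include the 5 genes whose inclusion required a lower mean in transduced cells, and some counts without them are given below.

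**Figure D1:**
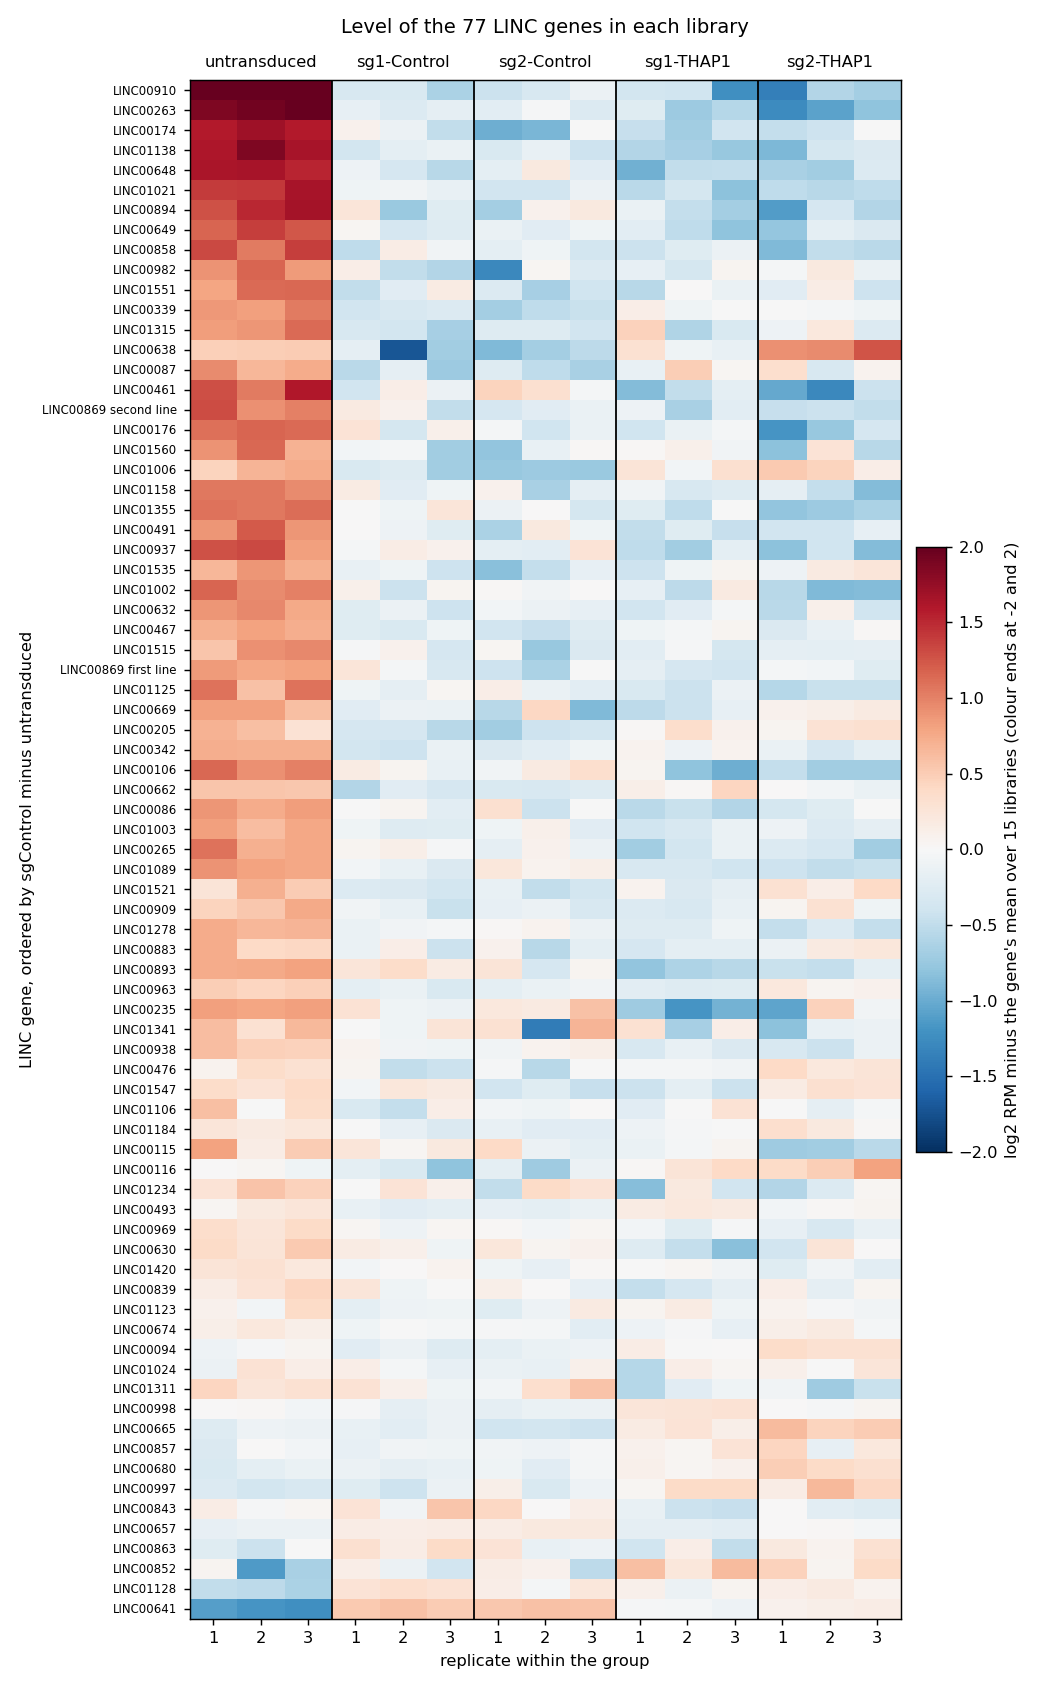
Level of each of the 77 LINC genes (rows) in each of the 15 libraries (columns, in groups of 3), as log2 RPM minus the mean of that gene; red is above and blue below the mean, and rows run from the lowest to the highest sgControl minus untransduced change. The 3 untransduced columns are red in most rows, and the last row, LINC00641, is the reverse. For LINC00910, LINC00982, LINC00858, LINC01006 and LINC00461 the choice by level required a lower mean in transduced cells.

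The shift was visible in the single libraries. For 57 genes all 6 sgControl libraries were below all 3 untransduced libraries, for 3 genes all were above, and for 17 the groups overlapped. Over all genes tested, 39.8% lay all below and 27.3% all above. Among the 72 genes with a mean of at least 0 log2 RPM over the 12 transduced libraries, 52 lay all below and 3 all above. The untransduced group had the highest mean of the 5 groups for 60 of the 77 genes, and for 43.1% of all 13416 genes tested at the same level. The count of 60 was not made without the 5 genes whose inclusion required a lower mean in transduced cells. Group means differed by 1.11 on the log2 scale between the highest and the lowest group in the median gene, against a median SD within groups of 0.14.

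Under a stricter rule, which asks for over 2-fold and an adjusted p below 0.001, 29 genes were called lower and 1 higher, and over all genes tested 8.76% were called lower and 2.29% higher. Without the 5 genes that passed the level through their untransduced libraries, 24 of 72 were called lower and 1 higher. LINC00910, which is 1 of those 5, had the largest fitted change. It had 2.33, 2.52 and 2.46 log2 RPM in the untransduced libraries, -0.14, -0.12 and -0.45 with sg1-Control and -0.24, -0.14 and 0.07 with sg2-Control, or 153 to 209 reads against 26 to 52. The 2 sets of libraries were over 2 log2 units apart, and the fitted change was -2.61 (SE 0.23, adjusted p = 3.19e-09), leaving 16.4% of the untransduced level.

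LINC00263, also named OLMALINC for its link to oligodendrocyte maturation, was the next. It had 4.73, 4.78 and 4.85 log2 RPM in untransduced cells, 2.69, 2.57 and 2.68 with sg1-Control and 2.64, 2.83 and 2.58 with sg2-Control, a change of -2.12 (SE 0.15, adjusted p = 1.16e-10). Both control guides gave nearly the same level. LINC01021 (PURPL) had 4.43, 4.44 and 4.67 log2 RPM in untransduced cells against 2.95, 2.96 and 2.88 with sg1-Control and 2.65, 2.65 and 2.91 with sg2-Control, and its change was -1.68 (SE 0.10, adjusted p = 1.76e-11).

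LINC00174 fell by 2.03, LINC01138 by 1.97, LINC00648 by 1.80 and LINC00894 by 1.67 on the log2 scale, and in each the groups were apart in all libraries. LINC00174 was the most uneven of these, with 0.52 and 0.59 log2 RPM in 2 sg2-Control libraries and 1.49 in the third. LINC00649 (-1.43), LINC00858 (-1.42), LINC00982 (-1.38), LINC01551 (-1.34), LINC00339 (-1.34), LINC01315 (-1.33), LINC00461 (-1.25), LINC00087 (-1.26), LINC00176 (-1.23), LINC01560 (-1.20) and LINC01006 (-1.20) were called lower too, and for LINC00858, LINC00982, LINC00461 and LINC01006 the choice by level required a lower mean in transduced cells. LINC00461, which hosts the microRNA miR-9-2, is a transcript known from the nervous system. LINC00632, at 2.78 to 2.98 log2 RPM in untransduced and 1.61 to 1.97 in sgControl libraries, fell by 1.05 on the log2 scale.

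**Figure D2:**
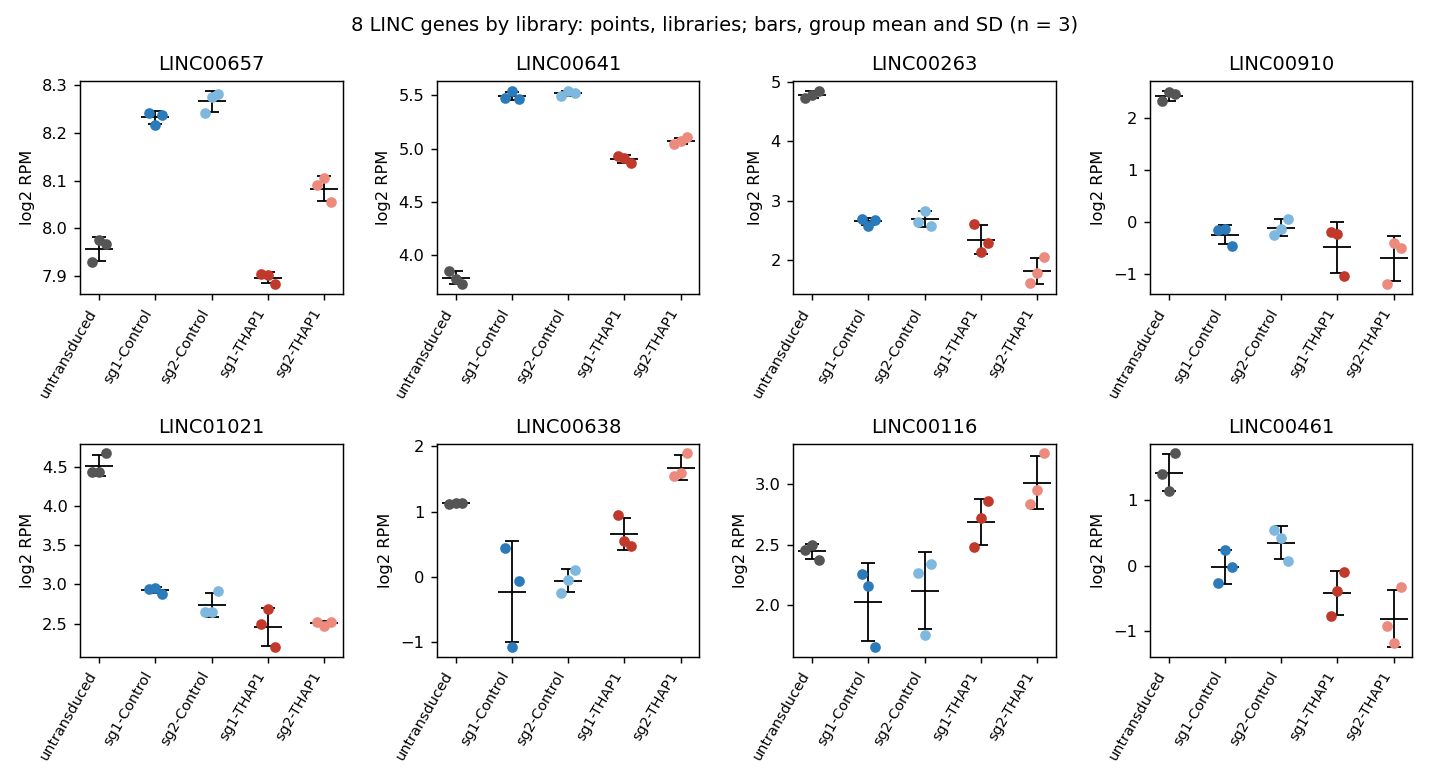
Level in log2 RPM of 8 LINC genes in each library (points, coloured by group) with the group mean and SD (bars, n = 3); each panel has its own scale, which does not start at 0. LINC00263, LINC00910, LINC01021 and LINC00461 are highest in untransduced cells, LINC00641 is lowest there, and LINC00638 falls with the control guides and lies higher again with the THAP1 guides. For LINC00910 and LINC00461 the choice by level required a lower mean in transduced cells.

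The 3 genes that rose were among the 9 highest. LINC00641 had 3.85, 3.77 and 3.73 log2 RPM in untransduced cells, 5.48, 5.54 and 5.47 with sg1-Control and 5.49, 5.54 and 5.52 with sg2-Control. All 6 sgControl libraries were above all 3 untransduced libraries, and the change was 1.72 (SE 0.06, adjusted p = 1.08e-15), or 3.31-fold. LINC01128 rose by 0.75 (SE 0.08, adjusted p = 4.85e-08), and LINC00657 (NORAD) by 0.29 (SE 0.05, adjusted p = 1.18e-05), from 7.93 to 7.98 log2 RPM in untransduced to 8.22 to 8.28 in sgControl libraries.

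Because the highest gene rose while most fell, the summed level moved less than the typical gene. The 77 genes together had 975 ± 7.51 RPM (SD, n = 3) in untransduced and 823 ± 9.65 RPM (SD, n = 6) in sgControl libraries, 84.4% of the untransduced sum. Without LINC00657 the sums were 726 ± 5.03 and 519 ± 8.84 RPM, and below the 10 highest genes they were 470 ± 6.12 and 261 ± 6.54 RPM, 55.6% of the untransduced sum. In sgTHAP1 libraries the 3 sums were 787 ± 29.4, 532 ± 11.6 and 266 ± 10.3 RPM (SD, n = 6).

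The median fall was larger at low levels, for LINC genes and for other genes. In sgControl against untransduced, the median change of LINC genes was -1.20 for the 20 with a mean of 0 to 1 log2 RPM, -0.99 for the 19 from 1 to 2, -0.79 for the 19 from 2 to 3, -0.62 for the 10 from 3 to 4 and -0.15 for the 9 at 4 or above. The lowest range held the 5 genes that passed through their untransduced libraries, and without them its median over 15 genes was -1.14. Other genes in the same ranges had medians of -0.61, -0.55, -0.40, -0.26 and 0.07. Genes annotated as lncRNA that carry no LINC number, 296 at the same level, were lower in 68.2% and higher in 7.77%, with a median of -0.63, and 11957 protein-coding genes were lower in 39.0%, with a median of -0.03.

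**Figure D3:**
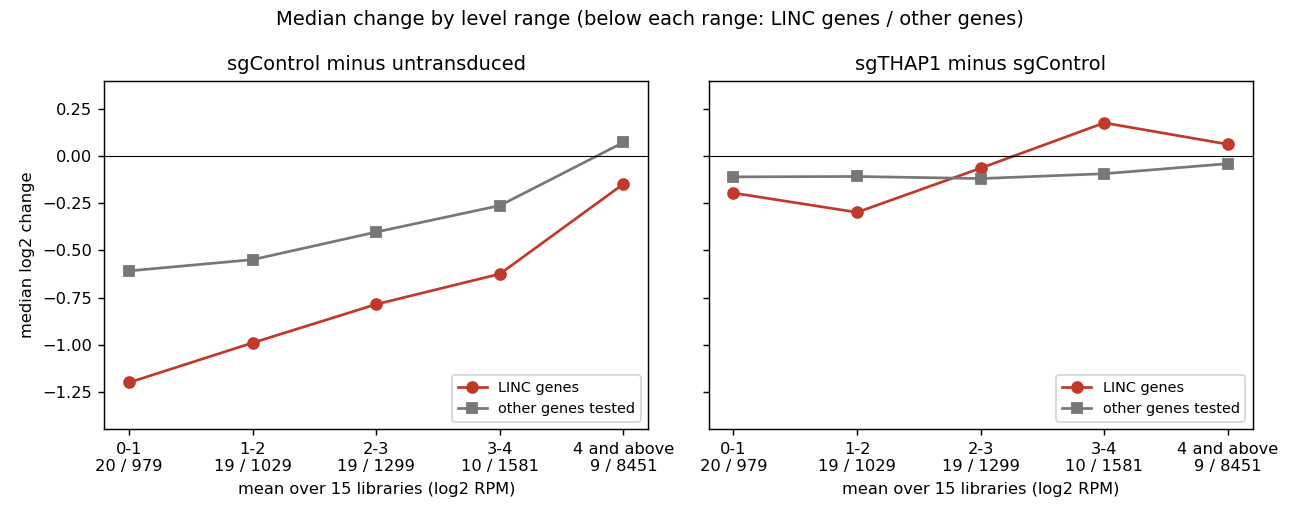
Median log2 change (y axis) of the LINC genes (circles) and of all other genes tested (squares) in 5 ranges of the mean level in log2 RPM (x axis), for sgControl minus untransduced (left) and sgTHAP1 minus sgControl (right). On the left the LINC genes lie below the other genes in each range, from -1.20 against -0.61 to -0.15 against 0.07. On the right the LINC medians run from -0.30 to 0.18 and those of other genes from -0.12 to -0.04.

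Some library measures moved with this comparison. All genes below 0 log2 RPM together held 2787 to 2810 RPM in the untransduced and 1589 to 1723 RPM in the sgControl libraries, and the share of reads within listed genes differed as given above; their part in the result was not tested. The 832 LINC genes below the level, which are part of these genes, had 64.9 to 72.5 RPM in all in untransduced and 32.6 to 36.8 in sgControl libraries. Of the 66 of these that could be tested, 31 were lower and 5 higher. Testing asked for at least -2 log2 RPM in 3 or more libraries, and the untransduced group had 3 libraries. A gene below the level could thus enter through its untransduced libraries alone, which favours a lower result, or through transduced libraries alone. Such genes were not separated here, so the counts of 31 and 5 are a description. When the median of each library was set equal, all genes tested had a median change of 0.03 in place of -0.12, and of the LINC genes 50 were lower and 6 higher. When quantiles were equalised, 49 were lower and 11 higher, and 8 in place of 29 were called lower.

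Of 7 loci on a list of LINC genes known to encode small proteins, 5 were lower in sgControl, with a median of -0.34, a share near that of all 77 LINC genes (72.7%), and the fitted change of all 7 was negative. LINC01420 (NBDY) changed by -0.29, LINC00493 (SMIM26) by -0.34, LINC00086 by -0.87 and LINC00087 by -1.26, while LINC00998 (SMIM30) at -0.12 (adjusted p = 0.102) and LINC00094 (BRD3OS) at -0.15 (adjusted p = 0.0885) did not pass. LINC00116 (MTLN), at -0.38 (adjusted p = 0.0421), passed here but not in 10 of the alternative settings, and with equal quantiles its sign turned. Of the 10 LINC genes on chromosome X, 9 were lower, the exception being LINC00630 at -0.29 (adjusted p = 0.106). The share was 72.7% over all 77 LINC genes and 38.9% over the 460 genes at the level on that chromosome. The near-copies LINC00086 and LINC00087 are both among the 10.

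Neighbours that start close to a LINC gene on the opposite strand did not fall with it in most cases. For 22 of the 77 genes, another listed gene started within 1000 bases on the opposite strand, and 20 such pairs had a neighbour that could be tested, for 19 LINC genes. In sgControl against untransduced, the LINC genes of these pairs had a median change of -0.83, near the -0.86 of all 77 LINC genes. The neighbours had a median of 0.09, against -0.05 for all genes tested with a mean of at least 0 log2 RPM. The LINC gene had the lower change in 17 of 20 pairs. LINC00982 and LINC01006, which stand in these pairs, passed the level only through their untransduced libraries. Across the 20 pairs Pearson's r of the 2 changes was 0.11, given as a description since pairs come from the same libraries and LINC00662 stands in 2 of them. Strand-specific libraries can separate such partners, but the strand setting of the counting is not given in the sources used here. Genes that overlap a LINC gene on the same strand, found for 13 of the 77, are not counted in these pairs. Some of them moved with the LINC gene, such as RHOF (-0.72) with LINC01089 (-0.84). Others did not, such as IDS (0.12) with LINC00893 (-0.64). How reads were split between same-strand partners was not tested.

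The pairs with the largest change of the LINC gene are given here. LINC00894 changed by -1.67 and CXorf40B, whose start is 183 bases away, by 0.11 (adjusted p = 0.19). LINC00649 changed by -1.43 against -0.07 (adjusted p = 0.0597) for ATP5O, a subunit of the mitochondrial ATP synthase, and LINC01560 by -1.20 against 0.09 (adjusted p = 0.443) for the zinc finger gene ZNF41. LINC01158, known as PANTR1, changed by -1.17 against 0.09 (adjusted p = 0.771) for its partner RP11-13J10.1.

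Other pairs fell on both sides. LINC00982 changed by -1.38 and PRDM16, a transcription factor gene 731 bases away, by -0.43 (adjusted p = 0.00788). LINC01125 changed by -0.99 and ACTR1B, of the dynactin complex, by -0.73 (adjusted p = 1.61e-09), and LINC01006 by -1.20 against -1.58 (adjusted p = 0.00126) for RNF32, itself at a mean of only 0.01 log2 RPM. LINC00662 changed by -0.89 and its higher partner CTC-459F4.3 by -0.26 (adjusted p = 0.0227), which turned to 0.12 with equal quantiles. The 34 LINC genes with no overlapping gene and no start within 1000 bases had a median change of -0.87, near the -0.86 of all 77. Of the 34, 23 were lower and 2 higher, against 72.7% lower over all 77 LINC genes and 40.5% over all genes tested. LINC00910 and LINC00858, which are among the 34, passed the level only through their untransduced libraries.

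**Figure D4:**
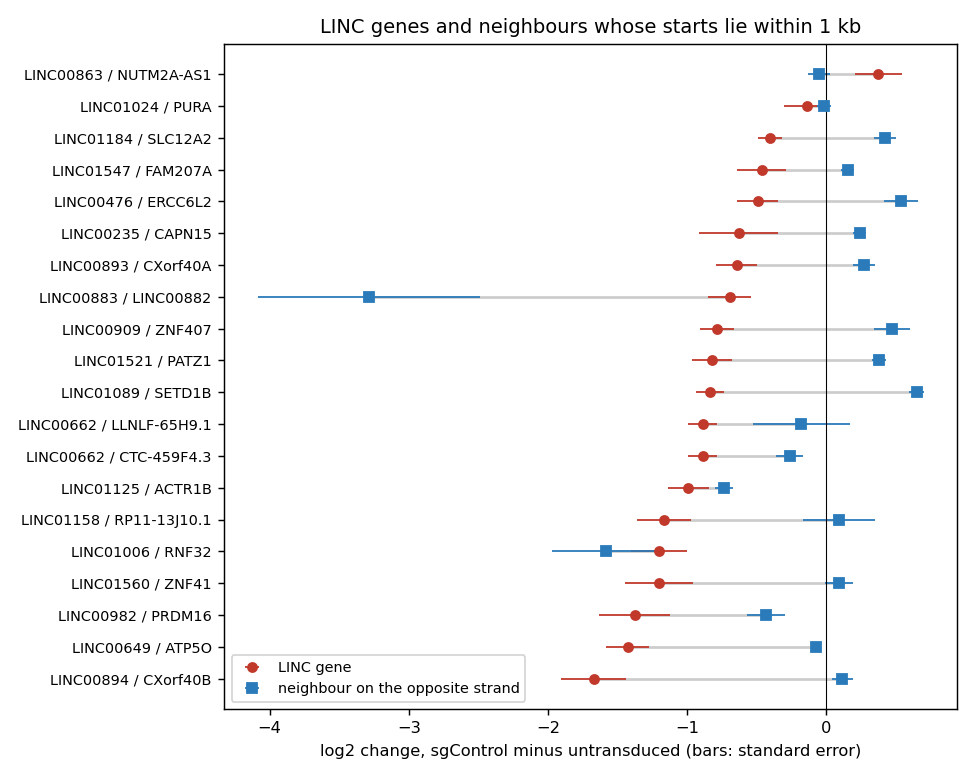
Log2 change, sgControl minus untransduced (x axis, bars are standard errors), of the LINC gene (circles) and of the neighbour that starts within 1000 bases on the opposite strand (squares) in 20 pairs (rows). The circles lie left of the squares in 17 of 20 pairs, with medians of -0.83 and 0.09. LINC00982 and LINC01006 passed the level only through their untransduced libraries.

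The comparison of THAP1 guides with control guides asks which genes differ in the cells given a THAP1 guide, and in it the LINC genes moved to both sides. The study describes a sort for dim reporter fluorescence for the THAP1-guide cells and none for the control-guide cells. A change through loss of THAP1 therefore cannot be told apart from a change through that sort. In sgTHAP1 against sgControl, 24 of the 77 genes were lower and 18 higher at an adjusted p under 0.05 (limma), and over all genes tested 32.6% were lower and 20.2% higher. The median log2 change was -0.06 for the 77 genes and -0.06 for all genes tested. The split depended on the scaling: with equal medians 14 were lower and 25 higher, with equal quantiles 12 and 26, and the median of all genes tested then moved from -0.06 to 0.05 and 0.02. All 6 sgTHAP1 libraries lay above all 6 sgControl libraries for 11 genes and below for 4, and the groups overlapped for 62. Over all genes tested 11% lay all above and 19.9% all below.

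**Figure D5:**
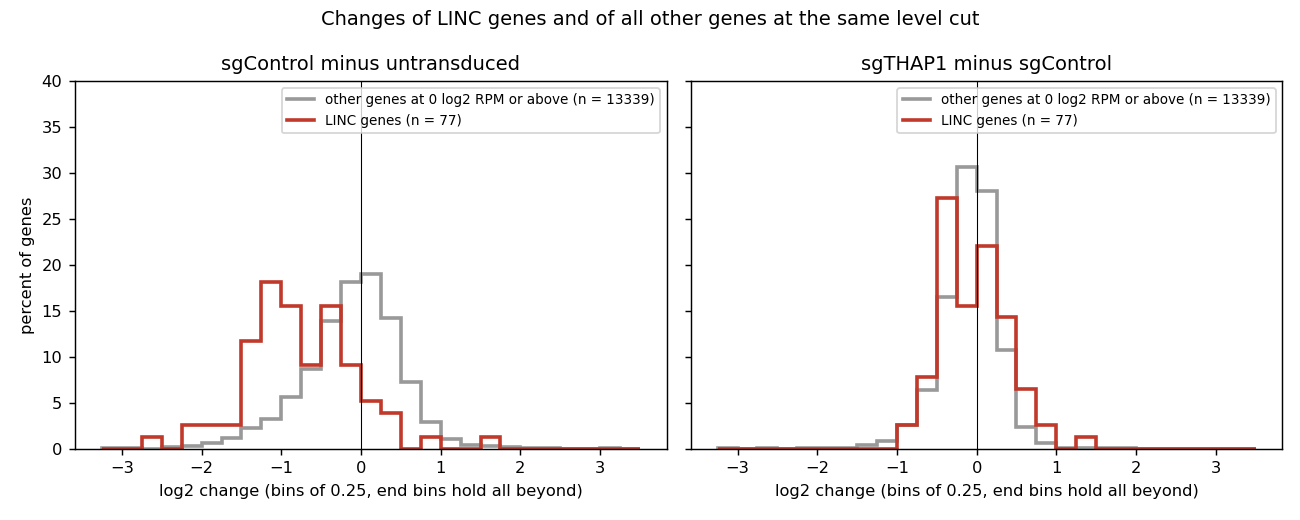
Percent of genes (y axis) by log2 change in bins of 0.25 (x axis) for the 77 LINC genes and the 13339 other genes with a mean of at least 0 log2 RPM, for sgControl minus untransduced (left) and sgTHAP1 minus sgControl (right). On the left the LINC genes are most frequent between -1.25 and -1 and the other genes between 0 and 0.25, and on the right both lie around 0, with LINC00638 the 1 LINC gene above 1.

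One gene passed the stricter rule in this comparison, where 0.346% of all genes tested were called higher and 1.83% lower. LINC00638, listed by RefSeq as VESTAR and lying on chromosome 14 at 104821201 to 104823718, had 0.45, -1.07 and -0.06 log2 RPM with sg1-Control and -0.24, -0.04 and 0.11 with sg2-Control. It had 0.95, 0.55 and 0.48 with sg1-THAP1 and 1.54, 1.58 and 1.89 with sg2-THAP1. Its reads were few, 27 to 69 per sgControl and 43 to 177 per sgTHAP1 library, and all sgTHAP1 libraries were above all sgControl libraries.

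The change of LINC00638 was 1.31 (SE 0.25, adjusted p = 0.00018), or 2.47-fold, and the 2 guides differed: it was 0.80 for sg1-THAP1 and 1.81 for sg2-THAP1 against sgControl. Its untransduced libraries stood at 1.12, 1.13 and 1.14 log2 RPM, above all sgControl libraries, so sgTHAP1 against untransduced was 0.04 (adjusted p = 0.922). With 0.5 RPM added before the logarithm the change was 0.96 and the gene was no longer over 2-fold. Over all alternatives the adjusted p lay between 2.88e-09 and 0.00204. Of the 77 genes none was called lower: 0 by limma, 0 at an unadjusted p under 0.05 with a change of over 2-fold, and 0 by voom on the recovered reads. Among the 66 LINC genes tested below the level, 2 were called lower and 1 higher.

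Among the other genes that rose, LINC01006 had the largest change. It had -0.17, -0.12 and -0.56 log2 RPM with sg1-Control, -0.63, -0.60 and -0.61 with sg2-Control, 0.38, 0.07 and 0.45 with sg1-THAP1 and 0.65, 0.57 and 0.26 with sg2-THAP1, a change of 0.84 (SE 0.16, adjusted p = 0.000187) with no overlap. Its partner RNF32 changed by 0.40 (adjusted p = 0.305). LINC00205 rose by 0.64 (SE 0.09, adjusted p = 8.73e-06) and LINC00665 by 0.63 (SE 0.09, adjusted p = 3.4e-06), with 3.10 to 3.39 log2 RPM in sgControl and 3.63 to 4.16 in sgTHAP1 libraries for the latter. LINC00997 (0.51), LINC00339 (0.42), which lies next to CDC42, and LINC00662 (0.40) rose as well. LINC00852 (0.50, adjusted p = 0.0269) passed here but was lost in 7 settings.

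Of the 7 small-protein loci, 5 were higher and 1 lower, against 20.2% higher and 32.6% lower of all genes tested. Of the 10 LINC genes that GENCODE now lists as protein-coding, 5 were higher and 3 lower. LINC00116 (MTLN) had 1.65 to 2.26 log2 RPM with sg1-Control, 1.75 to 2.34 with sg2-Control, 2.48 to 2.86 with sg1-THAP1 and 2.84 to 3.26 with sg2-THAP1, a change of 0.78 (SE 0.13, adjusted p = 3.65e-05). All sgTHAP1 libraries were above all sgControl libraries. LINC00094 (BRD3OS) rose by 0.36, LINC00998 (SMIM30) by 0.27, LINC00493 (SMIM26) by 0.27 and LINC00087 by 0.55, whereas its near-copy LINC00086 changed by -0.32 (adjusted p = 0.032), and LINC01420 (NBDY) by -0.06 (adjusted p = 0.409). The 7 loci were picked by their known products with results of these data already known, so the count is a description.

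The genes that fell with THAP1 guides were moderate in size. LINC00461 had -0.27, 0.24 and -0.02 log2 RPM with sg1-Control, 0.55, 0.43 and 0.07 with sg2-Control, -0.77, -0.39 and -0.09 with sg1-THAP1 and -0.91, -1.17 and -0.33 with sg2-THAP1, a change of -0.78 (SE 0.20, adjusted p = 0.00305). One sgTHAP1 library lay above the lowest sgControl library. LINC00235 changed by -0.76 (SE 0.23, adjusted p = 0.00869), of which -1.12 with sg1-THAP1 and -0.40 (adjusted p = 0.135) with sg2-THAP1. LINC00106 (-0.68), LINC00893 (-0.64), LINC00263 (-0.59), LINC00937 (-0.59) and LINC01311 (-0.55) fell too.

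Some of the most abundant LINC RNAs fell with complete separation of libraries. LINC00641 had 5.47 to 5.54 log2 RPM in the 6 sgControl libraries, 4.93, 4.91 and 4.86 with sg1-THAP1 and 5.04, 5.07 and 5.11 with sg2-THAP1, a change of -0.52 (SE 0.05, adjusted p = 8.64e-09) that left it above the untransduced level. LINC00657 (NORAD) had 8.22 to 8.28 in sgControl, 7.88 to 7.90 with sg1-THAP1 and 8.05 to 8.10 with sg2-THAP1, a change of -0.26 (SE 0.04, adjusted p = 7.37e-06), and sgTHAP1 against untransduced was 0.03 (adjusted p = 0.532). The comparisons with sgControl share those 6 libraries, so a fall in one and a rise in the other are not independent.

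LINC00263 and LINC01021, the p53-induced PURPL, fell again below their sgControl levels. LINC00263 had 2.61, 2.13 and 2.28 log2 RPM with sg1-THAP1 and 1.60, 1.78 and 2.04 with sg2-THAP1, against 2.57 to 2.83 in sgControl, so that 1 library overlapped. LINC01021 changed by -0.35 (SE 0.08, adjusted p = 0.00163), with 1 sgTHAP1 library at 2.68 within the range of sgControl.

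In LINC genes below the level, 8 of 66 rose and 8 fell in sgTHAP1 against sgControl. Here and for the lists that follow, the shares over all genes tested were 20.2% higher and 32.6% lower. Of 20 LINC genes on a list of RNAs with a later name or a literature of their own, 18 were tested, and 5 rose and 6 fell. The largest changes on it were outside the 77: LINC00473 fell by 4.43 (adjusted p = 5.05e-07), from a mean of only -1.60 log2 RPM over all libraries, and LINC01134 rose by 2.46 (adjusted p = 2.02e-06). Among 21 tested lncRNAs with names of other kinds, 5 rose and 5 fell, with MALAT1, a nuclear speckle RNA, at 1.32, DLEU1 at 0.36, MIR17HG, the host of the miR-17-92 cluster, at -0.96 and MIR22HG at -1.64. Of 17 tested host genes of small nucleolar RNAs, 8 rose and 1 fell. The 4 with the smallest p were SNHG6 (0.50), SNHG5 (0.25), ZFAS1 (0.25) and SNHG20 (-0.26).

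In sgControl against untransduced, where 40.5% of all genes tested were lower and 28.1% higher, the LINC RNAs with a later name had 8 lower and 3 higher of 18, a share of lower genes near that of all genes, the lncRNAs of other names 15 lower and 3 higher of 21 and the small nucleolar RNA hosts 11 lower and 3 higher of 17, with medians of -0.36, -0.52 and -0.30. MIR22HG rose by 3.10 and MALAT1 fell by 0.64 on the log2 scale.

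The 2 THAP1 guides did not give the same levels, either of LINC genes or of all genes tested. In sg2-THAP1 against sg1-THAP1, fitted with 1 mean per group, 11 of the 77 were lower and 18 higher. These shares, 14.3% and 23.4%, were near those over all genes tested, 11.7% lower and 28.3% higher. With equal medians or equal quantiles 12 were lower and 8 higher. LINC00638 was 1.01 higher (SE 0.26, adjusted p = 0.00143) with sg2-THAP1, LINC01547 0.60 higher (SE 0.12, adjusted p = 3.74e-05), LINC00630 0.49 higher, LINC00963 0.35 higher and LINC00657 0.19 higher. LINC00263 was lower by 0.53 (SE 0.12, adjusted p = 0.000221) and LINC01355 by 0.46 (adjusted p = 0.00258). LINC00235 (0.72, adjusted p = 0.0285), LINC00669 (0.50), LINC00115 (-0.61), LINC01002 (-0.59) and LINC00176 (-0.57) passed here and were lost in several settings each.

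The libraries of LINC01547 show this difference in full. It had 2.10, 2.34 and 2.10 log2 RPM with sg1-THAP1 and 2.69, 2.85 and 2.81 with sg2-THAP1, and the sgTHAP1 against sgControl change was only 0.07 (adjusted p = 0.712). THAP1 RNA itself was lower with sg1-THAP1 than with sg2-THAP1, at 5.48 to 5.56 against 6.06 to 6.18 log2 RPM, and its part in the guide difference was not tested.

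Between the 2 control guides few LINC genes passed the test. In sg2-Control against sg1-Control, 1 gene was lower and 0 were higher by limma, against 2.06% lower and 1.82% higher over all genes tested. At an unadjusted p under 0.05, 4 were lower and 1 higher, and voom gave 1 lower and 0 higher. The 1 gene was again LINC01547, at 2.48, 2.75 and 2.71 log2 RPM with sg1-Control and 2.15, 2.29 and 2.07 with sg2-Control, a change of -0.48 (SE 0.12, adjusted p = 0.00952), and the call was lost without sg1-Control replicate 2 or 3. The groups overlapped for 71 of the 77 genes and for 80% of all genes tested.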

How the data were processed

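Reads of 15 polyA+ libraries were trimmed with Cutadapt, mapped to GRCh38 with HISAT2 and counted per gene in SeqMonk. The authors deposited log2 RPM values, in which a gene without reads is listed as 0.9 read; no source used here gives the annotation release or the strand setting of counting. The deposited table also holds 10 columns of the authors' means and fold changes, which were not used. Whole reads were recovered from the values (100% of values under 500 reads within 0.01 read). At higher values the tolerance was widened in proportion to the reads, so the check is weaker there.

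The 16787 genes that reached -2 log2 RPM in 3 or more libraries entered limma 3.58.1 in R 4.3.3 (moderated test with a trend, all groups in 1 fit, Benjamini-Hochberg adjustment). Pooled comparisons had 1 mean each for untransduced, sgControl and sgTHAP1, and guide comparisons 1 mean per group. The p-values measure the spread between libraries, and the sources do not say whether libraries of 1 guide came from separate transductions. Pooled fits count 6 libraries per target, from 2 guides. The scripts were tested on simulated data. Genes were matched to GENCODE release 44 and promoters taken from RefSeq GRCh38.p14.

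Genes named were taken from those passing the stricter rule in any comparison and from the 10 highest. Further genes were up to 10 in each direction in sgTHAP1 against sgControl and up to 5 in the other comparisons. The 3 on each side of the level, up to 4 per list and up to 8 neighbour pairs were added. Not every gene passing the stricter rule is described. LINC00491 (-1.14) and the 2 lines of LINC00869 (-1.005 and -1.23) were also called lower in sgControl against untransduced. The genes and lists were chosen with earlier results of these data known. Alternatives were other filters, 0.5 RPM added before the logarithm, voom on the recovered reads, array weights, median centring, quantile normalization, 1 mean per guide, single guides, a replicate block and leaving out each library.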

Additional observations from a re-analysis of the deposited data

Results flagged for a closer look

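In 162 groups of 6 libraries of the 81 genes named or tabulated, 6 had 1 library far from the other 5, with a gap over 0.625 of the range, which chance gives in about 1 in 20 groups. Among sgControl libraries, LINC00662 was low in sg1-Control replicate 1, at 2.52 log2 RPM against 2.77 to 2.88 in the others. LINC01002 was low in sg1-Control replicate 2, at 0.586 against 0.935 to 1.12, and LINC01315 in sg1-Control replicate 3, at 0.245 against 0.535 to 0.657. Among sgTHAP1 libraries, LINC00339 was high in sg1-THAP1 replicate 1, at 2.76 log2 RPM against 2.54 to 2.62. DLEU1, a lncRNA of another name, was high in sg2-THAP1 replicate 2, at 4.82 against 4.56 to 4.66. PRDM16, the neighbour of LINC00982, was high in the same library, at 2.34 against 1.66 to 1.90.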

How the results depend on the processing

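The count of LINC genes lower in sgControl than in untransduced cells was 49 to 62 over all alternatives, against 56. The count higher, 3, became 11 with quantile normalization, 6 with median centring, 5 with array weights and 5 with 1 mean per guide, and 3 to 5 when 1 library was left out, 5 without sg2-Control replicate 3. Genes called lower, 29, became 16 with 0.5 RPM added and 8 with quantile normalization, under which 3 in place of 1 were called higher. With quantile normalization the sign turned for CTC-459F4.3 (0.12), IRS4 (-0.055) and LINC00116 (0.10). In sgTHAP1 against sgControl the count lower, 24, became 12 with quantile normalization and 14 with median centring. The 1 gene called higher became 0 with 0.5 RPM added, 0 with sg1-THAP1 alone and 2 (LINC00638 and LINC01006) against sg2-Control alone, and 1 gene, LINC00235, was called lower with sg1-THAP1 alone. In sg2-THAP1 against sg1-THAP1 the count lower, 11, became 5 with no filter and 6 with voom, and 5 to 11 with 1 library left out: 5 without sg1-THAP1 replicate 3 and 6, 7 and 6 without sg2-THAP1 replicates 1, 2 and 3. The count higher, 18, became 8 with quantile normalization and 8 with median centring, and 12 to 20 with 1 library left out. In sg2-Control against sg1-Control the count lower, 1, was 0 to 2 with 1 library left out, 0 without sg1-Control replicate 2 or 3 and 2 without sg2-Control replicate 3, and the count higher, 0, became 1 with array weights. The cause of these changes was not tested.

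With the replicate number as a block, 24 genes were lower and 18 higher in sgTHAP1 against sgControl, 55 and 4 in sgControl against untransduced, 11 and 18 between THAP1 guides and 1 and 0 between control guides. Deviations of same-numbered libraries correlated at -0.100 to 0.062, 0 of 30 over 0.1, so the numbers were not taken as pairs. In an alternative chosen after seeing the data, the 72 genes with a mean of at least 0 log2 RPM over the 12 transduced libraries had 51 lower and 3 higher in sgControl against untransduced, with 24 called lower. Genes near the level rest on few reads, down to 14 in a library.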
